A study of Homo sapiens with 6 samples.

Results

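SLC38A12 and SLC7A11-AS1 were the 2 genes whose symbols matched the name patterns of the amino acid transporter families, among 14812 genes with a named probe on the array. The patterns covered the families SLC1, SLC3, SLC6, SLC7, SLC36, SLC38 and SLC43 and the single gene SLC16A10, and the rule itself uses no measured value, although it was set with earlier results of these data known. RefSeq lists 83 symbols that fit these patterns, 62 of them protein coding, and the other 81 had no named probe in the probe table used here and were not analysed here. The gap was not particular to these families. Of 398 protein-coding genes with a symbol that starts with SLC, 23 had a named probe (5.78%), against 59.4% of all 20056 protein-coding genes. The label of amino acid transporters is therefore not borne out by the members. SLC7A11-AS1 is a noncoding antisense gene and no transporter, and SLC38A12, formerly TMEM104, carries the SLC38 name. Both are called by their symbols here.

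SKBR3, a breast cancer line with amplified HER2, was grown in DMEM with 10% FBS, and its RNA was hybridised. One group of 3 arrays measured cells that stably expressed an shRNA against NDRG1 (shNDRG1, called G8 in the labels), and another group of 3 measured cells with an shRNA against GFP (shGFP control, called vector control in the extraction protocol). All 6 samples were labelled as grown without DFO, the iron chelator deferoxamine. The methods describe the arrays as independent biological replicates, and the labels give each group 1 array in batches 1, 2 and 3 without saying what a batch is. Batches 2 and 3 carry the same date in the labels, and batch 1 an earlier date. The suffixes after G8 and GFP in the labels differ between the groups, and their meaning is not given. A single shRNA in 1 cell line limits what the groups stand for, and in such bulk RNA a change in the make-up of the culture and a change per cell cannot be told apart.

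Amino acid transporters move amino acids across the plasma membrane and the lysosomal membrane. SLC7 light chains pair with SLC3 heavy chains to exchange large neutral, cationic or acidic amino acids, SLC1 and SLC38 members couple uptake to sodium, and SLC36 members to protons. SLC7A11 is the light chain of the cystine and glutamate exchanger, which feeds glutathione synthesis. Inside cells, amino acids are sensed by the kinase complex mTORC1 at the lysosome, and their lack is sensed by the kinase GCN2, which acts through the transcription factor ATF4. ATF4 is known to induce transporter genes, asparagine synthetase and aminoacyl-tRNA synthetases.

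Values are taken here as log2 relative to a baseline that the authors subtracted from each probe. Differences between arrays keep their meaning, but no expression level remains, so neither the level of a transporter nor the identity of the cell line could be checked from markers. Differences are shNDRG1 minus shGFP control within batches, fitted with limma over all 14812 genes with Benjamini-Hochberg adjustment. The standard deviation over all probes was 0.236 and 0.288 on the batch 2 arrays of shNDRG1 and control cells, against 0.119 to 0.135 on the other 4. NDRG1, the target of the shRNA, was lower in every batch, with differences of -0.79, -1.16 and -1.07 in batches 1, 2 and 3. Its log2 difference of -1.01 (standard error 0.09) did not pass over all genes (adjusted p = 0.289 from limma).

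SLC38A12 was above the control in every batch, but by less than the test could tell from the spread between batches. In shNDRG1 cells its log2 value was 0.05 in batch 1, 0.35 in batch 2 and 0.35 in batch 3. In shGFP control cells it was -0.05, 0.33 and -0.07. The control array of batch 2 was nearly as high as the shNDRG1 arrays of batches 2 and 3, and the shNDRG1 array of batch 1 lay near the other controls, so the groups overlapped. The mean was 0.25 ± 0.17 (SD, n = 3) over the shNDRG1 arrays, against 0.07 ± 0.23 (SD, n = 3) over the control arrays. Within batches 1, 2 and 3 the difference was 0.10, 0.02 and 0.43. Most of the mean difference thus came from batch 3, and batch 2 showed almost none.

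The fitted log2 difference of SLC38A12 was 0.18 (standard error 0.10), or 1.14-fold higher. It did not pass the test (adjusted p = 0.675, unadjusted p = 0.126 from limma). Its 95% interval ran from -0.08 to 0.44, which spans a 0.948-fold to a 1.36-fold level. In absolute size the difference was larger than that of 86.4% of all genes, and its range over the 6 arrays was larger than that of 62.7%. Without batch 3 the log2 difference was 0.06 (standard error 0.07), and without batch 2 it was 0.26 (standard error 0.11).

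SLC7A11-AS1 hardly varied between arrays. In batches 1, 2 and 3 its log2 value was 0.03, 0.01 and -0.04 with the NDRG1 shRNA and -0.01, 0.04 and -0.07 with the control shRNA. All 6 values thus ran from -0.07 to 0.04, and the groups overlapped. The mean was 0.0014 ± 0.034 (SD, n = 3) over the shNDRG1 arrays, against -0.013 ± 0.057 (SD, n = 3) over the control arrays. The difference was 0.04, -0.03 and 0.03 within the batches, so its direction was not shared by all of them.

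For SLC7A11-AS1 the fitted log2 difference was 0.01 (standard error 0.05), or 1.01-fold, with an adjusted p of 0.986 in limma. Its 95% interval ran from -0.12 to 0.15, or from 0.921-fold to 1.11-fold. The range of its values over the 6 arrays was larger than that of only 12.5% of all genes. In the RefSeq gene table its span overlaps those of SLC7A11 and of the noncoding gene LINC00616. No source used here gives the position of its probe, so signal from the overlapping genes could not be told apart. As no level remains in the values, a gene that is not expressed and a gene that is expressed evenly cannot be told apart either.

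**Figure D1:**
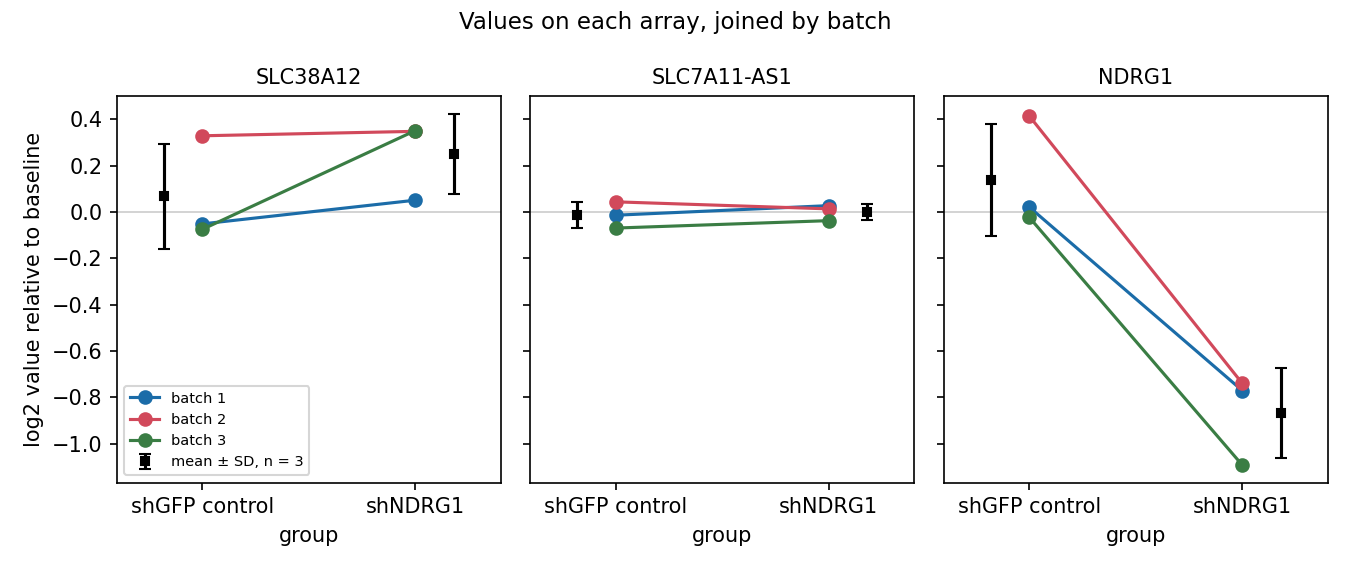
Log2 values relative to the baseline (vertical axis) of SLC38A12, SLC7A11-AS1 and NDRG1 in shGFP control and shNDRG1 cells (horizontal axis), with lines joining the arrays of a batch and squares giving the mean ± SD of 3 arrays. SLC38A12 differed by 0.43 in batch 3 and by 0.02 in batch 2, SLC7A11-AS1 stayed between -0.07 and 0.04, and NDRG1 was lower in every batch.

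Neither member was called. With the threshold on the adjusted p from limma set at 0.05, 0 of 2 members were called in either direction, as were 0 of 14812 genes (0%). With the same threshold on the unadjusted p it was again 0 of 2 members, against 845 genes higher (5.70%) and 554 lower (3.74%). SLC38A12 was higher in all 3 batches, a pattern held by 17.1% of all genes, and 12.5% were lower in all 3. The difference between SLC38A12 and SLC7A11-AS1 was not tested. Each gene was measured by 1 probe, so no second probe could be set beside either value.

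**Figure D2:**
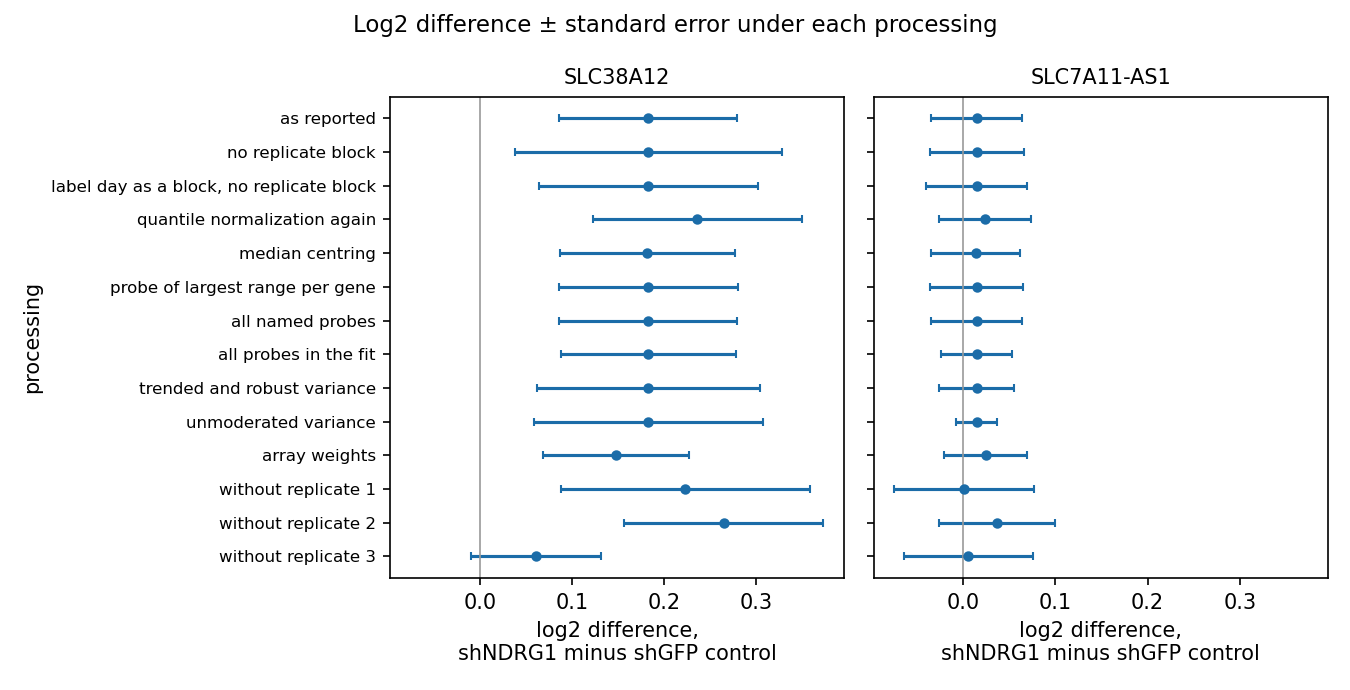
Log2 difference between shNDRG1 and shGFP control cells (horizontal axis, points with bars of 1 standard error) for SLC38A12 and SLC7A11-AS1 under each way of processing (vertical axis). SLC38A12 ranged from 0.06 without batch 3 to 0.26 without batch 2, whereas SLC7A11-AS1 stayed between 0.00081 and 0.04.

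Of the 2 members, 1 matched a window in the RefSeq promoter table (GRCh38.p14), which spans 250 bases before to 50 bases after a gene's start. The SLC38A12 window held none of the 3 motifs searched on both strands, which were TGATGNAAN, the C/EBP-ATF response element that ATF4 binds, CACGTG, the E-box bound by MYC, and TGACNNNGC, the antioxidant response element bound by NRF2. These motifs were found in 3.61%, 7.26% and 13.3% of the 35116 windows of the table. The absence of a match says only that these letters are not in the window.

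Genes that act with the transporters were read from 8 lists, of whose 153 different symbols 90 had a named probe. Of the 90, 0 passed after adjustment over all genes with limma. Those with an unadjusted p under 0.05 numbered 24 above (26.7%) and 0 below the control with the batch as a block, against 5.70% above and 3.74% below among all genes. Without the block they numbered 14 and 0, against 2.69% above and 232 genes below among all 14812. With batch 1 left out there were 25 above and 2 below, against 3.5% above and 291 genes below among all genes. With batch 2 left out there were 18 and 1, against 3.56% above and 577 genes below. With batch 3 left out there were 20 and 2, against 7.51% above and 674 genes below. The median log2 difference of the 90 was 0.12, against 0.0070 over all 14812 genes, and 0.07 without batch 3. The 14812 genes were not filtered on level, as none remains in the values, so they may hold more unexpressed genes than the lists. The shares may therefore not compare like with like, here and for each list below. The lists, too, were set with earlier results known. SLC38A12, at 0.18, lay above the median of the 90 genes, and SLC7A11-AS1 below it.

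Cytosolic aminoacyl-tRNA synthetases, which charge tRNAs with the amino acids that transporters bring in, had a median of 0.23, with 15 of 17 measured genes above the control and 12 higher in all 3 batches, against 7943 of 14812 genes and 17.1% of all genes. An unadjusted p under 0.05 was found for 9 genes above and 0 below the control with the block, against 5.70% and 3.74% of all genes. Without the block they numbered 4 and 0, against 2.69% above and 232 genes below among all 14812. Without batch 2 they numbered 5 and 0, against 3.56% above and 577 genes below. Without batch 3, 9 were above and 1 below, against 7.51% above and 674 genes below among all genes. The tyrosyl enzyme gene YARS1 had a log2 difference of 0.32 (standard error 0.06, limma adjusted p = 0.327), the isoleucyl gene IARS1 of 0.23 (standard error 0.05) and the leucyl gene LARS1 of 0.22 (standard error 0.05).

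In the list of the GCN2 and ATF4 response, 19 of 22 measured genes were above the control, against 7943 of 14812 among all genes. The list median was 0.14. The unadjusted p fell under 0.05 for 4 genes above and 0 below the control, against 5.70% and 3.74% of all genes. These counts were 2 and 0 without the block, 7 and 1 without batch 1, and 2 and 1 without batch 3. Those above were 9.09%, 31.8% and 9.09% of the list, against 2.69%, 3.5% and 7.51% of all genes. Below the control in the same settings were 232, 291 and 674 of all 14812 genes. Without batch 3 the median was 0.07. With array weights the median was also 0.07. ATF4 had a log2 difference of 0.26 (standard error 0.08, adjusted p = 0.449 from limma), and the asparagine synthetase gene ASNS of 0.40 (standard error 0.11). The lipoprotein receptor gene VLDLR was at 1.08, 0.94 and 0.99 in batches 1, 2 and 3. For the serine synthesis genes PSAT1 and PHGDH the differences were 0.20 (standard error 0.09) and 0.13 (standard error 0.09), and TRIB3 and SESN2 were at 0.06 and 0.02. In batches 1, 2 and 3 PSAT1 was at -0.03, 0.31 and 0.33, PHGDH at 0.04, 0.0028 and 0.37, and ASNS at 0.24, 0.26 and 0.69. PHGDH and ASNS were thus largest in batch 3. The 3 genes below the control were JDP2, DDIT4 and STC2, at -0.17, -0.13 and -0.03, and JDP2 was lower in every batch.

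Of 26 measured genes of amino acid sensing by mTORC1, 17 were above the control, against 7943 of 14812 among all genes. The list median was 0.09. With the block, the unadjusted p fell under 0.05 for 7 genes above and 0 below the control, against 5.70% and 3.74% of all genes. Without the block it did so for 5 and 0, against 2.69% above and 232 genes below among all 14812. The median was 0.05 without batch 2, 0.03 without batch 3 and 0.03 with array weights. The 7 genes included the Rag GTPase genes RRAGD, at 0.74 (standard error 0.12, adjusted p = 0.318 from limma), and RRAGC, at 0.42 (standard error 0.07), and the kinase gene MTOR, at 0.30 (standard error 0.06). Also among the 7 were LAMTOR5, LARS1, ITFG2 and TSC1, at 0.28, 0.22, 0.21 and 0.16. Below the control were 9 genes of this list, among them LAMTOR4, FNIP2, DEPDC5 and TSC2, at -0.17, -0.11, -0.06 and -0.05. FNIP2 and DEPDC5 were lower in every batch. LARS1 is counted among the synthetases as well, and SESN2 of this list in that of the GCN2 and ATF4 response. ASNS and PSAT1 of the GCN2 list also stand among the glutamine and glutamate enzymes. CTH and CBS of the GCN2 list also stand in that of cystine use, as does CD44 of the partners. The lists are therefore not separate from each other. Of 6 measured partners of transporters, 3 were above and 3 below the control. CD44, which binds the cystine exchanger, was at 0.60 (standard error 0.07), LAPTM4B, which recruits a leucine transporter to lysosomes, at 0.42 (standard error 0.07), and ARL6IP5, a regulator of a glutamate transporter, at 0.24 (standard error 0.11). The other 3, BSG, GPM6A and CLTRN, were at -0.08, -0.04 and -0.01. The lysosomal exporter SLC66A1, which carries cationic amino acids and lies outside the name patterns, was at 0.24 (standard error 0.11), and SLC66A2 at 0.23 (standard error 0.06).

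The remaining lists had medians of 0.08 for 8 genes of glutamine and glutamate enzymes, -0.0074 for 11 of cystine use and glutathione synthesis and -0.03 for 5 mitochondrial carriers. Leaving out 1 batch moved each of them. The glutamine median was 0.04 without batch 1, 0.02 without batch 2 and 0.12 without batch 3. That of cystine use was 0.05 without batch 1, 0.0027 without batch 2 and -0.00058 without batch 3. That of the mitochondrial carriers was -0.06 without batch 1, -0.05 without batch 2 and 0.05 without batch 3. The glutamine synthetase gene GLUL was at 0.09 (standard error 0.05) and the cystathionine lyase gene CTH at 0.18 (standard error 0.06). Among the mitochondrial carriers the ornithine carrier gene SLC25A15 was at 0.17 (standard error 0.05) and SFXN2 at 0.24 (standard error 0.07). SLC25A2 was lower in every batch, at -0.12 (standard error 0.05), and SFXN3 and SFXN1 were at -0.10 and -0.03. The counts over these lists describe single genes that did not pass over all genes, and whether any list differed from the other genes was not tested.

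**Figure D3:**
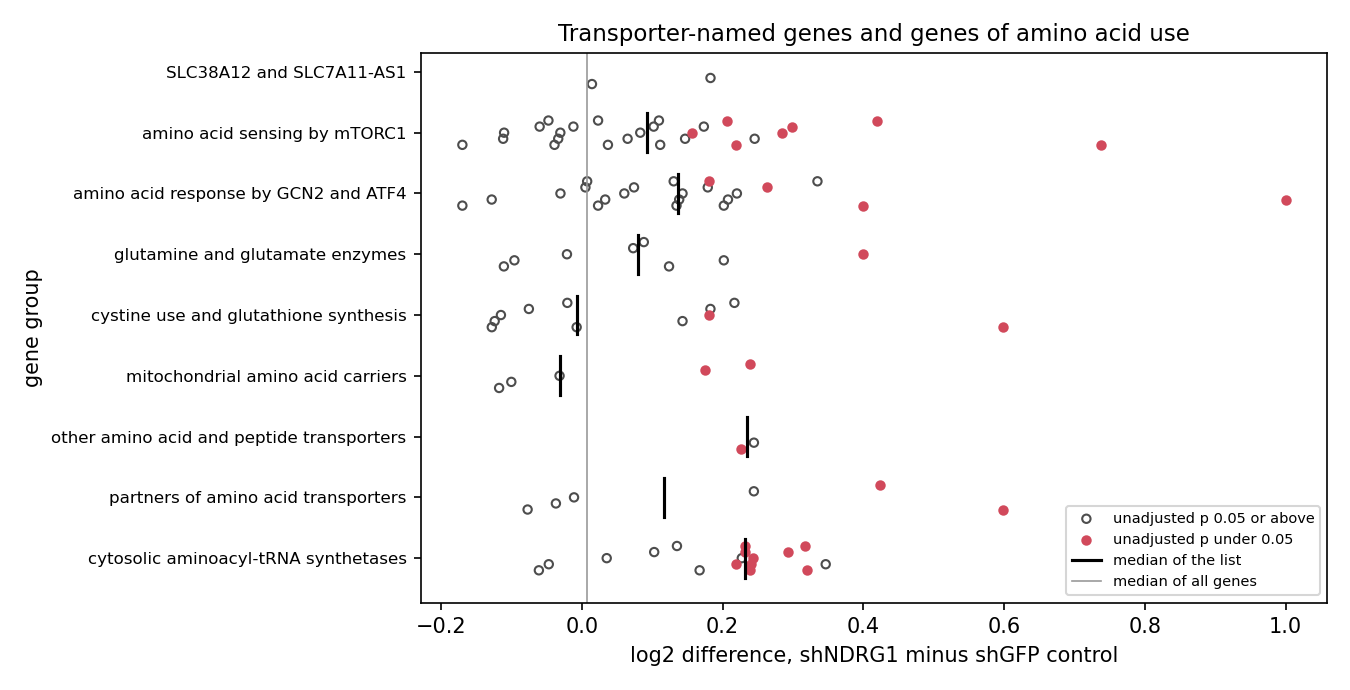
Log2 difference between shNDRG1 and shGFP control cells (horizontal axis) for SLC38A12 and SLC7A11-AS1 and for the measured genes of 8 lists of amino acid use (vertical axis), each circle 1 gene, filled where the unadjusted p was under 0.05. Black bars give the median of a list and the grey line that of all genes, and the aminoacyl-tRNA synthetases had a median of 0.23.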

How the data were processed

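RNA of 6 samples was hybridised to Affymetrix Gene ST arrays. The authors summarized probes with PLIER in GeneSpring, applied quantile normalization and subtracted a baseline from each probe, which the methods give as the median of the control samples. That median was within 1e-05 of 0 for 0.341% of probes, and the median over all 6 arrays for 26.8%, so the samples behind the baseline stay unknown. A baseline cancels in differences between arrays. The deposited table holds 1 value for each probe and array, taken here as log2 because no source states the base. Affymetrix Expression Console and PLIER are named in the submitters' notes. The platform annotation gave 1 symbol for 15835 of 44629 probes and several for 0, and 28794 are unnamed here. Probes were averaged for the 651 of 14812 genes that had more than 1. The table held 0 unused columns.

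The fit used limma 3.58.1 in R 4.3.3 over all 6 arrays with the batch as a block, adjusted over all genes at a threshold of 0.05. There was no filter on dim probes, since no level remains. The pairing comes from the batch numbers in the labels, and the deviations of both arrays of a batch from their group means correlated at 0.785, 0.833 and 0.163 in batches 1, 2 and 3. Between arrays of different batches the correlations ran from -0.816 to 0.64. The value of 0.64 was that of shNDRG1 in batch 1 with the control of batch 3, above the 0.163 of the batch 3 pair. The fit was also run on simulated data with known changes, only as a check of the code. The simulated noise of a gene was alike on all 6 arrays, so that run does not show how the fit performs on these arrays. The members and lists were chosen with earlier results of these data known. Members to be given in full were those with an unadjusted p under 0.05, those with an absolute log2 difference of at least 0.5 and 16 anchors, of which 0 had a named probe. None of these criteria took a member, so both are given in full. From each list, a fixed set of genes and those with the smallest p are named. Alternatives covered the fit without the block, the day in the labels as a block, normalization, the variance model, array weights, the use of probes, the threshold and leaving out batches. Figures were made in Python 3.11.15 with matplotlib 3.10.9.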

Additional observations from a re-analysis of the deposited data

How the results depend on the processing

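Neither SLC38A12 nor SLC7A11-AS1 was called under any of the 14 alternatives. Both log2 differences kept their sign, but the block, the probes used, the variance model and the threshold cannot move the difference of a gene with 1 probe. Only normalization, array weights and leaving out a batch could change the sign, and without batch 1 SLC7A11-AS1 was at 0.00081. SLC38A12 ranged from 0.06 to 0.26 when a batch was left out and was 0.24 after quantile normalization again and 0.15 with array weights. SLC7A11-AS1 ranged from 0.00081 to 0.04 and NDRG1 from -1.11 to -0.93 when a batch was left out. Leaving out a single array equals leaving out its batch in this paired fit. Without the replicate block the differences were the same, 0.18 and 0.01, with standard errors of 0.14 and 0.05, and the genes with an unadjusted p under 0.05 numbered 399 above and 232 below the control, against 845 and 554 with it. The block changed no call at an adjusted p under 0.05. Over all genes 0 were called, except that 1 was lower with trended and robust variance, ALDH2, named after its value was seen, at -0.84 (adjusted p = 0.0310 from limma). The number of arrays limits what could be detected, and dim probes could not be told from bright ones.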
